A study of Mus musculus with 11 samples.

Results

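The 41 genes described here encode proteins of the lysosome, namely cathepsins and related peptidases, other proteins that are abundant in macrophages, acid hydrolases, and proteins of the lysosomal membrane or of lipid transfer. They were taken by gene symbol from a list drawn up for the biology of the lysosome, with earlier results of these data known, and they are 41 of the 21759 gene symbols in the table. All 41 were found, each on a probe set annotated as unique to its gene, and all 41 reached a mean signal of 30 in at least 1 group and were therefore tested. Where a gene had more than 1 probe set (Glb1 and Arsb), that of the highest mean signal was used.

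Messenger RNA was measured in the tibialis anterior (TA) muscle of 11 male mice of the C57/B10 background, all 14 weeks old. The C57 group was 3 wild-type mice without treatment. The mdx group was 4 untreated mice that carry a nonsense mutation in Dmd and so lack the muscle protein dystrophin. The treated group was 4 mdx mice given a single tail vein injection of 12.5 mg/kg Pip6e-PMO at 12 weeks of age, a peptide-conjugated morpholino oligonucleotide that makes the splicing machinery skip the mutated exon. RNA came from sections of the middle of the muscle, with fibres, vessels, connective tissue and infiltrating cells together, and each mouse had its own array.

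The lysosome is the acidic compartment in which proteins, glycans, lipids and nucleic acids from endocytosis, phagocytosis and autophagy are broken down. Most cells have lysosomes, and broadly used hydrolases such as acid alpha-glucosidase serve the muscle fibre as they serve other cells, as the glycogen storage of Pompe disease shows. Macrophages hold many lysosomes and additionally use peptidases such as cathepsin S, which trims the chaperone of MHC class II molecules, and in dystrophic muscle they enter in large numbers to remove damaged fibres. The genes were therefore described in 4 classes, which were 8 macrophage-rich genes, 5 other cathepsins, 20 hydrolases and 8 membrane or lipid-transfer proteins.

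Promoters are shown first, for the short sequences they hold, which were chosen after the values had been seen, and no difference between the classes was tested. The sequences are from RefSeq on GRCm38.p6, from 250 bases before to 50 bases after an annotated start, read 5′ to 3′ on the strand of the gene, and 36 of the 41 genes had at least 1, giving 41 promoters. The E-box core CACGTG, the centre of the element that the lysosomal regulator TFEB is known to bind, was searched on both strands (it is its own reverse complement) and was in 11 of the 41 promoters, against 7.15% of all 32851 promoters. By class it was in 4 of the 4 other cathepsins with a promoter, 5 of 18 hydrolases, 1 of 7 membrane or lipid-transfer genes and 1 of 7 macrophage-rich genes. The longer GTCACGTG, which contains that core, was in 8 of the 41 against 2.25% of all promoters. GAGGAAGT, a core of the kind bound by the myeloid factor PU.1, was in 4 of the 41, those of Ctsc, Ctss, Gla and Gusb, against 3.20% of all promoters. A match describes letters in this window, and binding was not measured. Below, capitals mark GTCACGTG or GAGGAAGT on either strand. The promoters of Ctss (chr3:95526536-95526835, plus strand) and Ctsc (chr7:88277835-88278134, plus strand) are the macrophage-rich promoters with GAGGAAGT. Those of Ctsd (chr7:142387778-142388077, minus strand) and Ctsa (chr2:164833523-164833822, plus strand) are the other cathepsins with GTCACGTG, and that of Lgmn (chr12:102439043-102439342, minus strand) is the macrophage-rich gene with it. For Ctss and Ctsd the annotated start of these sequences is the first base of the gene as RefSeq gives it, and for Ctsc, Ctsa and Lgmn it lies inside the gene.
Ctss: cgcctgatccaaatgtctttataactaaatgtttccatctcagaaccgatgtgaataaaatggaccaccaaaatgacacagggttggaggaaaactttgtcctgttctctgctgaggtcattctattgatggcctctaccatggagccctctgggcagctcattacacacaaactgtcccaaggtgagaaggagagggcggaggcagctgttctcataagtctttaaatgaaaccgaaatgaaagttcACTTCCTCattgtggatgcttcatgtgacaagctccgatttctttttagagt
Ctsc: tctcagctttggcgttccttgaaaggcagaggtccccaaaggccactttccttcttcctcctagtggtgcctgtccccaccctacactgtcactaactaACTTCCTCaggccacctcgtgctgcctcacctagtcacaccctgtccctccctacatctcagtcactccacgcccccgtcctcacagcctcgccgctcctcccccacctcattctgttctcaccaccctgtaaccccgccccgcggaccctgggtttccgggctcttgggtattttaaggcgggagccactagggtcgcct
Ctsd: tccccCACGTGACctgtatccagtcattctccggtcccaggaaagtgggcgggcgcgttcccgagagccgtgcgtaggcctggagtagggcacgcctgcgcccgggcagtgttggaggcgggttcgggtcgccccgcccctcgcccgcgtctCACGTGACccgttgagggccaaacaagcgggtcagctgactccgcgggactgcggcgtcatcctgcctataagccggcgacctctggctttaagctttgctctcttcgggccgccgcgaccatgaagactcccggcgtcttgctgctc
Ctsa: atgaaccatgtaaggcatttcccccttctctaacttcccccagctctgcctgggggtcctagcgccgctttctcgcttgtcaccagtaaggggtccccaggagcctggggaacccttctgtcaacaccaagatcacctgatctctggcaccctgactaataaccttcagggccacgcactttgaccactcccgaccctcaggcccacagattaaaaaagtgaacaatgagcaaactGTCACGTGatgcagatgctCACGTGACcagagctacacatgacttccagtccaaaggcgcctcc
Lgmn: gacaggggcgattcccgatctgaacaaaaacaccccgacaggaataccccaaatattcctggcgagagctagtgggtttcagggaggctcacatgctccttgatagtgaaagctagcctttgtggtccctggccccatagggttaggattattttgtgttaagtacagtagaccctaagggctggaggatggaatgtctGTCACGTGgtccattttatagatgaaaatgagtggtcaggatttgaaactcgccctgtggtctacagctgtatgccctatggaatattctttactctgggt

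Between mdx and C57 mice, all 8 macrophage-rich genes were called higher in mdx, and 1 of the 20 hydrolases was, though 17 of the 20 had differences above 0. The classes were drawn up with earlier results of these data known, so these counts are a description. The macrophage-rich class was led by Ctss, which was 4.61-fold higher, and its smallest rise was that of Ctsc, at 1.29-fold. Of all 41 genes, 12 were called higher and 0 lower in mdx by limma at an adjusted p under 0.05, where 12.0% of the 14494 probe sets tested were called, 7.06% higher and 4.96% lower. The median difference over the 41 genes was 0.34 on the log2 scale, against -0.01 over all probe sets tested. By class the median was 1.18 for the macrophage-rich genes, 0.15 for the other cathepsins, 0.29 for the hydrolases and 0.31 for the membrane and lipid-transfer genes. At an unadjusted p under 0.05 limma gave 23 higher and 1 lower, where 13.5% of all probe sets tested were higher and 11.4% lower. Without C57 mouse 2 the 12 fell to 7. The array measures RNA of the whole muscle, so more cells of a type and more RNA per cell cannot be told apart.

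The macrophage-rich genes begin with Ctss, cathepsin S, the cysteine protease that cleaves the MHC class II chaperone in antigen-presenting cells. Its log2 signal (probe set 10494271, chromosome 3) was 5.09, 5.19 and 5.22 in the C57 mice, 7.13, 7.45, 7.53 and 7.37 in the mdx mice, and 6.99, 7.11, 6.98 and 6.98 in the treated mice. The 3 groups did not overlap, with C57 lowest and mdx highest. The mdx mice were higher than C57 by 2.20 ± 0.10 (difference of mean log2 signals ± standard error; adjusted p = 2.3e-07), and the treated mice were lower than mdx by a difference of -0.355 ± 0.096 (adjusted p = 0.0378). Against C57 the treated mice were still higher by 1.85 (adjusted p = 2.91e-06).

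Ctsk, cathepsin K, the collagen-degrading protease best known from osteoclasts, lies beside Ctss on chromosome 3, at 95499210 to 95509387 against 95526786 to 95556405 on GRCm38.p6. Its log2 signal was 7.18, 6.62 and 6.91 in C57, 7.83, 8.72, 8.15 and 7.82 in mdx, and 7.06, 8.30, 7.82 and 8.17 in treated mice. The mdx mice were all above C57, and the treated mice spanned both groups, with treated mouse 1 between the C57 values. Ctsk was higher in mdx by 1.23 ± 0.29 (adjusted p = 0.016), a call that ended without C57 mouse 2 or 3 (adjusted p = 0.0815 and 0.0545), and the treated minus mdx difference was -0.29 ± 0.27 (adjusted p = 0.481).

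Lgmn encodes legumain, the asparaginyl endopeptidase that activates other cathepsins. Log2 signals of Lgmn were 8.77, 8.38 and 8.32 in C57, 9.52, 9.74, 9.39 and 9.82 in mdx, and 9.26, 9.28, 9.29 and 9.25 in treated mice. The treated values lay close together, below every mdx mouse and above every C57 mouse. Lgmn was higher in mdx by 1.13 ± 0.13 (adjusted p = 0.00024), and treated minus mdx was -0.35 ± 0.12, which did not pass the test (adjusted p = 0.077).

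For Laptm5, a lysosomal membrane protein of blood-derived cells, the log2 signal was 7.86, 7.85 and 8.08 in C57, 9.08, 9.63, 9.45 and 9.74 in mdx, and 8.80, 9.68, 8.74 and 8.65 in treated mice. Treated mouse 2 was among the mdx values and the other treated mice were below all of them. Laptm5 was higher in mdx by 1.545 ± 0.229 (adjusted p = 0.00118), and treated minus mdx was -0.51 ± 0.21 (adjusted p = 0.128). With 1 mouse left out the latter ran from -0.745 (without treated mouse 2, adjusted p = 0.00543) to -0.402, with adjusted p up to 0.291. Without treated mouse 2, 28.4% of all probe sets tested were called, against 11.1% with all mice.

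Acp5, the tartrate-resistant acid phosphatase of osteoclasts and macrophages, had log2 signals of 5.87, 5.55 and 6.23 in C57, 6.78, 7.50, 7.44 and 7.05 in mdx, and 5.54, 6.76, 5.77 and 6.20 in treated mice. Treated mice 3 and 4 were within the C57 range, treated mouse 1 was just below it, and treated mouse 2 was just below the lowest mdx mouse. The mdx mice were higher by 1.31 ± 0.27 (adjusted p = 0.00844) and the treated mice lower than mdx by a difference of -1.125 ± 0.254 (adjusted p = 0.0228), the largest difference of the 41 genes in that comparison. The treated minus C57 difference was 0.18 (adjusted p = 0.643).

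Ctsz, the carboxypeptidase cathepsin Z, had log2 signals of 9.10, 9.04 and 9.15 in C57, 9.56, 9.99, 9.75 and 9.80 in mdx, and 9.18, 9.41, 9.40 and 9.38 in treated mice. The groups did not overlap, with the treated mice between the other two. The difference was 0.68 ± 0.11 for mdx minus C57 (adjusted p = 0.00202) and -0.43 ± 0.10 for treated minus mdx (adjusted p = 0.0253).

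The aminopeptidase cathepsin H, Ctsh, had log2 signals of 7.03, 6.77 and 6.71 in C57, 7.27, 7.88, 7.42 and 7.65 in mdx, and 7.28, 7.49, 7.50 and 7.33 in treated mice. Ctsc, cathepsin C, which activates the serine proteases of leukocyte granules, had 7.91, 7.65 and 7.86 in C57, 8.12, 8.39, 8.10 and 8.10 in mdx, and 8.18, 8.26, 8.43 and 8.34 in treated mice. For both genes the treated mice overlapped the mdx mice and stayed above all C57 mice. Ctsh was higher in mdx by 0.72 ± 0.14 (adjusted p = 0.0063) and Ctsc by 0.37 ± 0.11 (adjusted p = 0.0453). The Ctsc call was the less secure, since it ended when any of 9 of the 11 mice was left out, the exceptions being treated mice 1 and 2 (adjusted p between 0.0576 and 0.198). Treated minus mdx was -0.155 for Ctsh (adjusted p = 0.448) and 0.125 for Ctsc (adjusted p = 0.421).

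**Figure D1:**
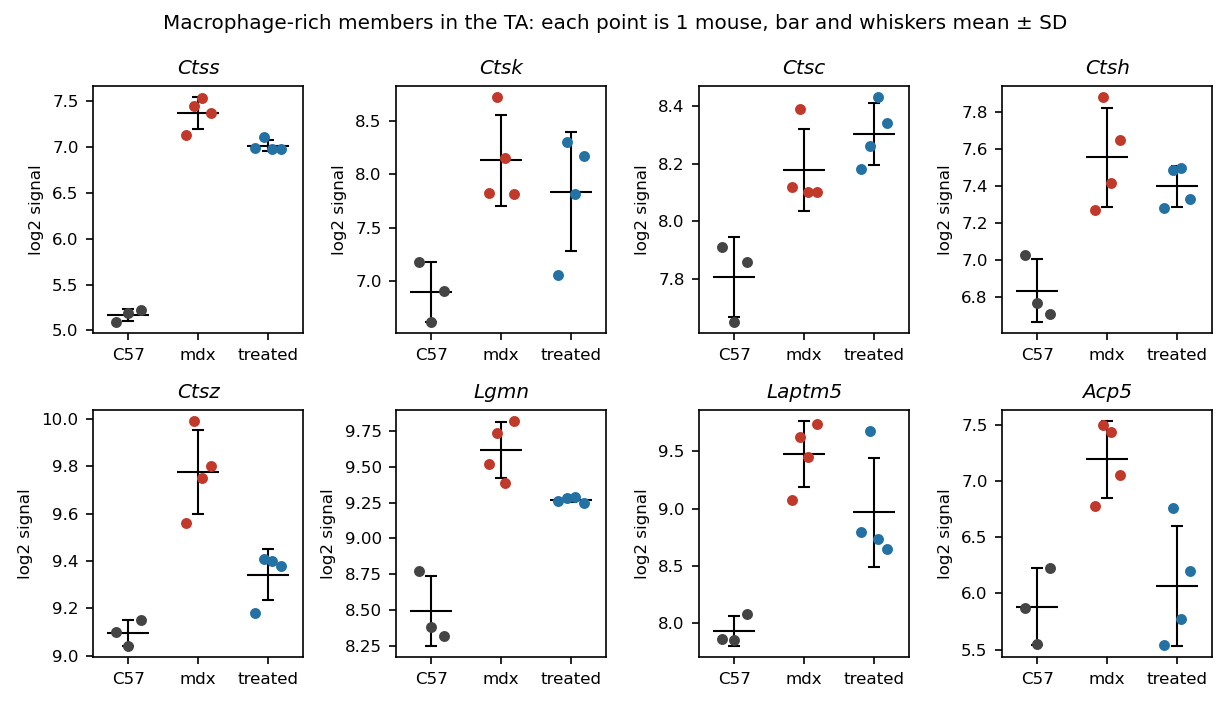
Log2 signal of the 8 macrophage-rich genes (vertical axis, a separate scale for each gene) in C57, mdx and treated mice; each point is 1 mouse, the horizontal bar is the mean and the whiskers are 1 SD. All mdx points lie above all C57 points for each of the 8 genes, and the treated points lie below all mdx points for Ctss, Ctsz, Lgmn and Acp5.

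Among the 5 other cathepsins, Ctsb alone was called higher in mdx. Cathepsin B is a cysteine protease of most cells, and its log2 signal (Ctsb, chromosome 14) was 10.95, 10.91 and 10.94 in C57, 11.27, 11.31, 11.28 and 11.20 in mdx, and 10.90, 11.09, 10.97 and 10.99 in treated mice. The mdx mice were above every other mouse, and the treated mice overlapped C57. The difference was 0.33 ± 0.08 for mdx minus C57 (adjusted p = 0.0204) and -0.28 ± 0.08 for treated minus mdx (adjusted p = 0.0387). The first call ended without any 1 of the C57 mice, mdx mouse 2 or mdx mouse 3 (adjusted p between 0.0502 and 0.0823), and the second without any mouse but C57 mouse 3 and treated mouse 2 (adjusted p between 0.0518 and 0.0973).

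Ctsa, the serine carboxypeptidase that protects beta-galactosidase and neuraminidase in the lysosome, had log2 signals of 10.68, 10.56 and 10.72 in C57, 10.81, 10.86, 10.70 and 10.80 in mdx, and 10.45, 10.69, 10.55 and 10.54 in treated mice. Ctsd, the main aspartic protease of the lysosome, had 11.85, 11.79 and 11.95 in C57, 12.11, 12.07, 11.95 and 11.92 in mdx, and 11.67, 12.01, 11.77 and 11.85 in treated mice. The mdx mice overlapped C57 for both, and mdx minus C57 was 0.14 for Ctsa (adjusted p = 0.383) and 0.15 for Ctsd (adjusted p = 0.41). Treated minus mdx was -0.235 ± 0.084 for Ctsa, with all treated below all mdx mice (adjusted p = 0.0832), and -0.19 ± 0.09 for Ctsd (adjusted p = 0.193).

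Ctsf, a cysteine protease widely present across tissues, had log2 signals of 8.11, 8.01 and 8.24 in C57, 8.11, 7.99, 7.91 and 7.74 in mdx, and 7.65, 8.12, 7.92 and 7.85 in treated mice. Ctsl, cathepsin L, had 9.05, 8.68 and 8.81 in C57, 9.16, 9.44, 8.98 and 9.03 in mdx, and 9.07, 9.17, 9.42 and 9.57 in treated mice. The groups overlapped for both genes, except that all treated mice were above all C57 mice for Ctsl. Neither passed the test in mdx minus C57 (differences -0.18 and 0.31, adjusted p = 0.416 and 0.235) or in treated minus mdx (-0.05 and 0.155, adjusted p = 0.794 and 0.471). Ctsl was higher in treated than in C57 mice by 0.46 ± 0.15 (adjusted p = 0.0429), a call that ended without C57 mouse 2 or 3, treated mouse 3 or 4, or mdx mouse 1 or 3 (adjusted p between 0.0505 and 0.152).

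Of the 20 hydrolases 1 was called in mdx, beside all 8 macrophage-rich genes, a difference in counts that was not tested. Their mdx minus C57 differences ran from -0.17 to 0.79 with a median of 0.29, and 17 of the 20 were above 0. At an unadjusted p under 0.05 limma gave 10 of the 20 higher and 0 lower, beside the same 13.5% and 11.4% of all probe sets tested. Without treated mouse 2 or mdx mouse 1 the adjusted count rose to 4, while without C57 mouse 2 or 3 it was 0. In 4 of them, Lipa, Glb1, Hexa and Fuca1, all mdx mice were above all C57 mice. Over all 41 genes that held for 16, with 1 gene (Npc1) the other way, where 13.1% of the probe sets tested were all higher and 11.3% all lower.

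Lipa, lysosomal acid lipase, which releases cholesterol and fatty acids, was the hydrolase called. Its log2 signal was 7.20, 6.74 and 6.63 in C57, 7.47, 8.06, 7.52 and 7.55 in mdx, and 7.66, 8.03, 7.72 and 7.76 in treated mice. The treated mice overlapped the mdx mice, and both were above all C57 mice. The difference was 0.79 ± 0.17 for mdx minus C57 (adjusted p = 0.00983), which became adjusted p = 0.0518 and 0.0526 without C57 mouse 2 and 3, and 0.14 ± 0.16 for treated minus mdx (adjusted p = 0.569).

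Asah1, acid ceramidase, had log2 signals of 6.36, 5.89 and 5.87 in C57, 6.61, 7.17, 6.50 and 6.18 in mdx, and 6.86, 6.57, 6.99 and 7.06 in treated mice. The mdx mice overlapped C57 (difference 0.57 ± 0.21, adjusted p = 0.105), and the treated mice were all above C57 (0.83 ± 0.21, adjusted p = 0.0155, or 0.0643 and 0.0675 without C57 mouse 2 and 3).

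At the other end of the class were Gaa, acid alpha-glucosidase, which degrades lysosomal glycogen, and Smpd1, acid sphingomyelinase. Gaa had log2 signals of 10.76, 10.92 and 10.97 in C57, 10.63, 10.64, 10.80 and 10.79 in mdx, and 10.70, 10.73, 10.61 and 10.74 in treated mice. Smpd1 had 10.87, 10.93 and 11.04 in C57, 10.91, 10.87, 10.82 and 10.72 in mdx, and 10.63, 10.80, 10.76 and 10.80 in treated mice. The mdx mice overlapped C57 for both, and every treated mouse was below every C57 mouse, without passing the test. For mdx minus C57 the differences were -0.17 ± 0.09 and -0.12 ± 0.09 (adjusted p = 0.287 and 0.48), and for treated minus C57 -0.19 and -0.20 (adjusted p = 0.145 and 0.12).

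The hydrolase called between treated and mdx mice was Ids, iduronate 2-sulfatase, which removes sulfate from heparan and dermatan sulfate. Its log2 signal (probe set 10604906, X chromosome) was 7.71, 7.54 and 7.56 in C57, 8.06, 8.08, 7.72 and 7.69 in mdx, and 8.46, 8.52, 8.54 and 8.67 in treated mice. Every treated mouse was above every mdx and C57 mouse. The treated mice were higher than mdx by 0.66 ± 0.11 (adjusted p = 0.0092) and higher than C57 by 0.94 ± 0.12 (adjusted p = 0.000349), while mdx minus C57 was 0.28 (adjusted p = 0.154).

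The hydrolases not yet given were Glb1, Hexa, Gusb, Gla, Naglu, Manba, Man2b1, Fuca1, Neu1 and Sgsh, which act on glycans and glycolipids, the sulfatases Galns and Arsb, the peptidase Tpp1, the thioesterase Ppt1 and the phosphatase Acp2. Their mdx minus C57 differences ran from -0.02 (Sgsh, adjusted p = 0.946) to 0.47 (Glb1, adjusted p = 0.0549), and none passed the test. The same genes had treated minus mdx differences from -0.375 (Galns, which acts on keratan sulfate, adjusted p = 0.0731) to 0.31 (Manba, beta-mannosidase, adjusted p = 0.0569). All treated mice were above all mdx mice for Manba. The second probe sets of Glb1 and Arsb, which have lower signals, had mdx minus C57 differences of 0.10 and 0.44, against 0.47 and 0.41 for the probe sets used, and none of these 4 differences passed the test.

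Of the membrane and lipid-transfer proteins, Gm2a and Cd63 were called higher in mdx. Gm2a, the activator protein that lifts gangliosides out of membranes for their breakdown, had log2 signals of 9.07, 9.03 and 9.03 in C57, 9.67, 9.85, 9.67 and 9.78 in mdx, and 8.75, 9.37, 9.15 and 9.0 in treated mice. The mdx mice stood above all others, and the treated mice lay on both sides of C57. The difference was 0.70 ± 0.13 for mdx minus C57 (adjusted p = 0.00425), -0.675 ± 0.119 for treated minus mdx (adjusted p = 0.0102) and 0.02 for treated minus C57 (adjusted p = 0.906).

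Cd63, a tetraspanin of late endosomes and lysosomes, had log2 signals of 9.72, 9.76 and 10.13 in C57, 10.35, 10.36, 10.35 and 10.38 in mdx, and 9.88, 10.47, 10.07 and 10.0 in treated mice. Treated mouse 2 was the highest of all 11, while the other treated mice were below all mdx mice. Cd63 was higher in mdx by 0.49 ± 0.14 (adjusted p = 0.0418), a call that ended without any 1 of C57 mice 1 and 2, treated mice 3 and 4 and the mdx mice (adjusted p between 0.0532 and 0.159).

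Scarb2, the membrane receptor that carries glucocerebrosidase to the lysosome, had log2 signals of 8.63, 8.42 and 8.70 in C57, 8.87, 8.80, 8.71 and 8.58 in mdx, and 9.07, 9.01, 9.25 and 9.32 in treated mice. Lamp2, a glycoprotein of the lysosomal membrane needed in autophagy, had 8.45, 8.23 and 8.23 in C57, 9.25, 9.41, 8.76 and 8.44 in mdx, and 9.53, 9.22, 9.64 and 9.66 in treated mice. The treated mice were above all C57 mice for both genes, and above all mdx mice for Scarb2. Scarb2 was higher in treated than in mdx mice by 0.42 ± 0.11 (adjusted p = 0.0296). Lamp2 differed by 0.66 ± 0.20 for mdx minus C57 (adjusted p = 0.0559), 0.55 ± 0.19 for treated minus mdx (adjusted p = 0.0767) and 1.21 ± 0.20 for treated minus C57 (adjusted p = 0.00215).

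Lamp1, the companion glycoprotein of the membrane, had log2 signals of 11.02, 10.72 and 10.66 in C57, 10.73, 10.87, 10.81 and 10.77 in mdx, and 11.01, 10.70, 11.02 and 11.18 in treated mice, and the groups overlapped in each comparison. Npc1, which exports cholesterol from the lysosome, had 10.44, 10.35 and 10.13 in C57, 9.60, 10.03, 10.09 and 10.03 in mdx, and 9.76, 9.72, 9.77 and 10.12 in treated mice. Npc1 was the only one of the 41 genes whose mdx mice were all below C57, by a difference of -0.37 ± 0.14 that did not pass the test (adjusted p = 0.125). Treated minus C57 was -0.46 ± 0.14 (adjusted p = 0.0346), and this call ended without C57 mouse 1 or 2 or treated mouse 1 or 3 (adjusted p between 0.0722 and 0.103).

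Npc2, the soluble carrier that hands cholesterol to Npc1, was above all C57 mice in every mdx mouse, by 0.47 ± 0.16 (adjusted p = 0.0835). Treated minus mdx was -0.49 ± 0.15 (adjusted p = 0.0553), or -0.65 without treated mouse 2 (adjusted p = 0.0029). In the fit without treated mouse 2, 28.4% of all probe sets tested were called, against 11.1% with all mice. Psap, the precursor of the saposins that help lipid hydrolases, differed little between groups, with mean log2 signals of 12.11 ± 0.05 in C57 (SD, n = 3), 12.13 ± 0.03 in mdx (n = 4) and 12.09 ± 0.09 in treated mice (n = 4).

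**Figure D2:**
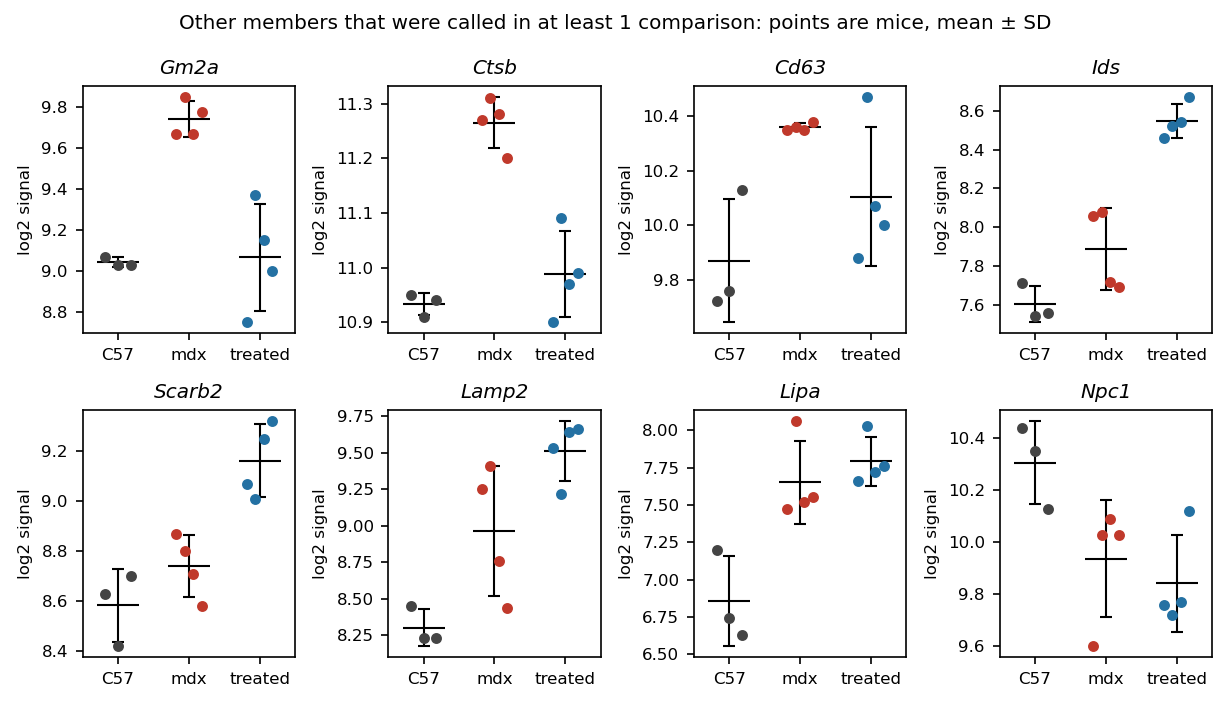
Log2 signal of 8 further genes that were called in at least 1 comparison (vertical axis, a separate scale for each gene), as 1 point per mouse with the mean and 1 SD. Gm2a and Ctsb are highest in mdx mice, whereas Ids and Scarb2 are highest in treated mice and Lipa is at a like level in mdx and treated mice.

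Between treated and mdx mice, the genes of the list moved in both directions. The limma test called 5 lower, Acp5, Gm2a, Ctsz, Ctss and Ctsb, and 2 higher, Ids and Scarb2, where 11.1% of all probe sets tested were called, 3.88% lower and 7.26% higher. The median over the 41 genes was -0.095, against 0.02 over all probe sets tested. Groups did not overlap for 7 genes that were lower in treated mice and 3 that were higher, against 6.69% and 9.29% of the probe sets tested. By class, 3 of the 8 macrophage-rich genes, 1 of 5 other cathepsins and 1 of 8 membrane or lipid-transfer genes were lower, and 1 of 20 hydrolases and 1 of 8 membrane or lipid-transfer genes were higher. The median was -0.35 for the macrophage-rich genes and -0.06 for the hydrolases. This comparison and that of mdx with C57 share the 4 mdx mice, so the differences of a gene in both are not independent.

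These calls changed with the mouse left out. The calls of Acp5, Ctsz, Ctss, Ctsb and Scarb2 all ended without treated mouse 1, 3 or 4 or mdx mouse 3 or 4, with adjusted p from 0.0544 to 0.102, which left 2 genes (Ids and Gm2a) called in each of these 5 cases. Those of Ctsz, Ctss and Ctsb also ended without mdx mouse 2 (adjusted p = 0.0531, 0.0793 and 0.0796), and that of Ctss without C57 mouse 2 (adjusted p = 0.0557), and that of Ctsb without C57 mouse 1 or 2 or mdx mouse 1 (adjusted p = 0.0518, 0.057 and 0.0671). A fit of only the mdx and treated mice called 3, which were Acp5, Gm2a and Ids. Without treated mouse 2, which of the treated mice stood nearest to mdx in several genes above, 16 genes were called, 12 lower and 4 higher, while the share of all probe sets called rose to 28.4%.

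**Figure D3:**
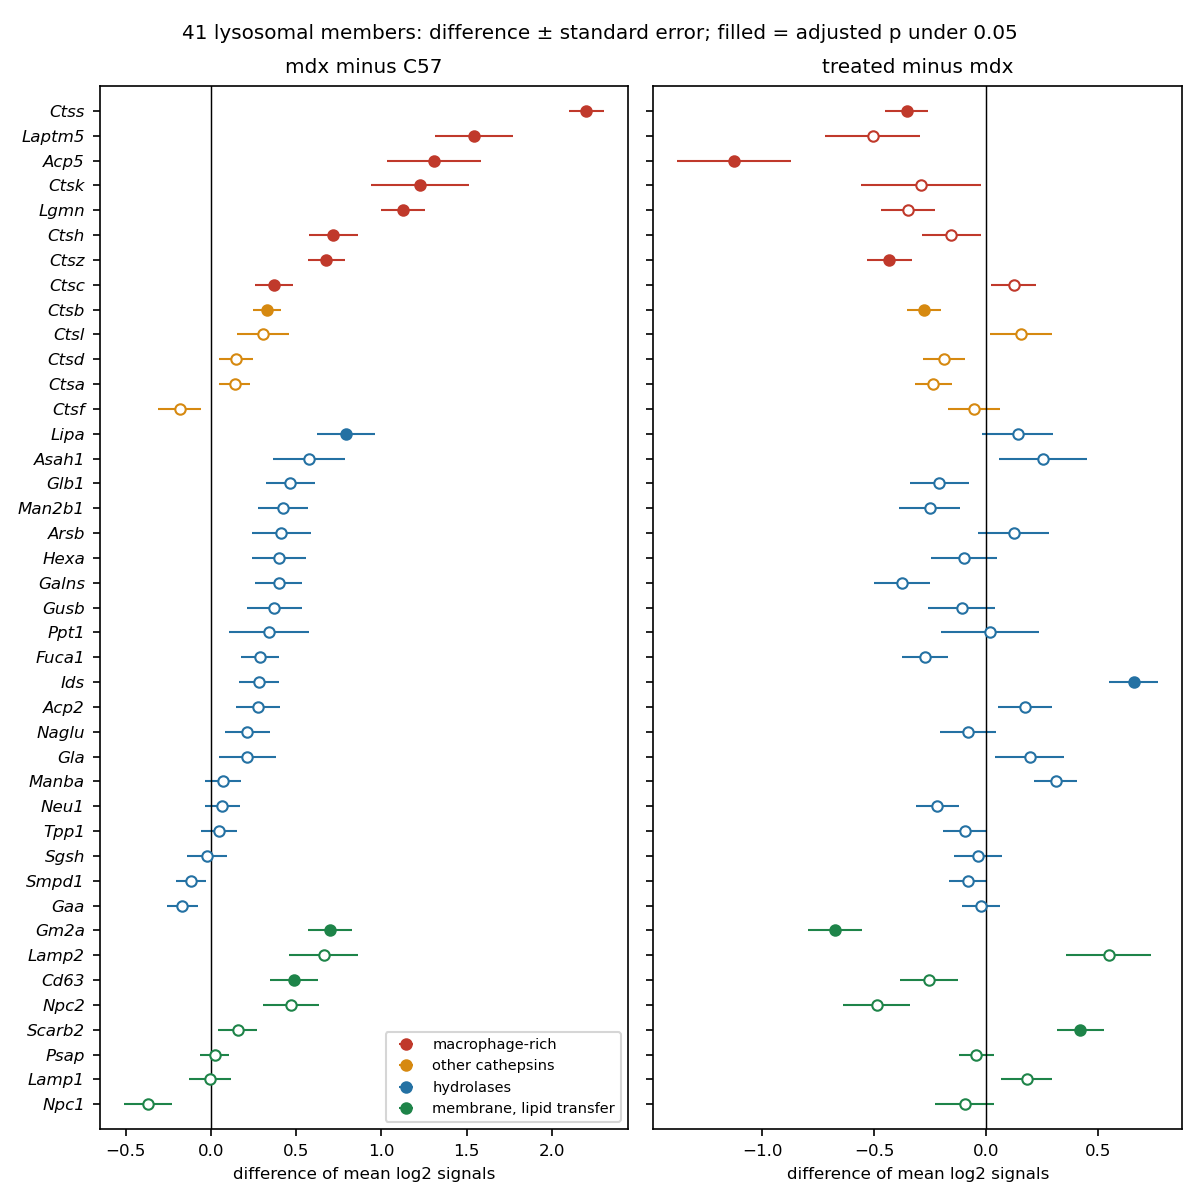
Difference of mean log2 signals (horizontal axis) with its standard error for each of the 41 genes, mdx minus C57 on the left and treated minus mdx on the right, coloured by class and filled where the adjusted p was under 0.05. The filled points on the left number 12, all to the right of 0 and 8 of them macrophage-rich, and those on the right number 5 below and 2 above 0.

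Against C57, the treated mice were higher in 15 genes and lower in 1 (Npc1), where 24.6% of probe sets tested were called, 15.6% higher and 8.96% lower. The 15 were 6 of the 8 macrophage-rich genes (not Ctsz and Acp5), Ctsl, the hydrolases Ids, Lipa, Asah1, Arsb, Acp2 and Manba, and the membrane proteins Lamp2 and Scarb2. The 16 calls fell to 8 without C57 mouse 2 and to 10 without C57 mouse 3 or treated mouse 3. Among the 15 the differences ran from 0.38 for Manba to 1.85 for Ctss. For Ctsz the difference was 0.25 ± 0.11, with all treated mice above all C57 mice but no call (adjusted p = 0.116).

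The contrast of macrophage-rich genes with hydrolases was then followed mouse by mouse, as the mean log2 signal of each class minus its C57 mean. The macrophage-rich mean was 0.90, 1.40, 1.14 and 1.155 in the mdx mice and 0.52, 1.02, 0.73 and 0.77 in the treated mice. The hydrolase mean was 0.12, 0.45, 0.25 and 0.25 in the mdx mice and 0.15, 0.36, 0.26 and 0.305 in the treated mice. Mdx mouse 2 and treated mouse 2 were the highest of their groups in both classes, and C57 mouse 2 the lowest of its group. The macrophage-rich mean minus the hydrolase mean was 0.78, 0.95, 0.89 and 0.905 in the mdx mice, 0.37, 0.66, 0.465 and 0.47 in the treated mice and from -0.095 to 0.08 in C57. The treated mice, treated mouse 2 included, therefore lay below all mdx mice and above all C57 mice in this gap, which is given as a description without a test because the classes were drawn up with results of these arrays known.

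Markers of macrophages were mostly higher in mdx, and between treated and mdx mice they differed in both directions. Of 17 markers 15 were tested, and Cd163 and Aif1 did not reach a signal of 30. Below that signal, Cd163 was lower in all mdx mice than in all C57 mice. In mdx 12 of the 15 were called higher than in C57 and 0 lower, where 7.06% of all probe sets tested were higher and 4.96% lower. The largest differences were those of Mpeg1 at 2.58 and Cd68 at 2.12 on the log2 scale. Their summed signal was 2188 to 2695 over the C57 mice, 5455 to 8156 over mdx and 3695 to 5730 over treated mice. Treated mouse 2 had the highest sum of the treated mice. Genes of high signal weigh most in this sum, with mean signals of 1627 for Lyz2 and 1524 for C1qb in mdx mice. Treated minus mdx was called lower for 4 (Tyrobp, C1qb, Cd68 and C1qc, from -1.12 to -0.98). It was called higher for 1, the mannose receptor Mrc1, at 0.49 (adjusted p = 0.0377). Mertk and Mpeg1 were the other markers with a difference above 0, at 0.37 and 0.07, without a call (adjusted p = 0.0977 and 0.766). In that comparison 3.88% of all probe sets tested were called lower and 7.26% higher. The part of these markers in the lysosomal results was not tested.

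Markers of other cells were followed in the same way. Over all probe sets tested, 7.06% were called higher and 4.96% lower in mdx minus C57, and 7.26% and 3.88% in treated minus mdx. Markers of regenerating fibres were higher in mdx for 5 of 6. Their summed signals were 581.6 to 763.7 over the C57 mice, 1008 to 1516 over mdx and 652.2 to 1178 over treated mice. In treated minus mdx 0 of these 6 were called, with a median difference of -0.71. Fibroblast and matrix markers were higher for 3 of 7 in mdx, with sums of 5047 to 6758, 7309 to 8891 and 6919 to 11400. For these 7, 0 were called in treated minus mdx, with a median difference of 0.035. Endothelial markers were higher in treated than in mdx mice for 2 of 5 (Tek and Pecam1, sums 1456 to 1999, 1691 to 2079 and 1870 to 2753), and adipocyte markers lower for 3 of 4 (Cfd, Adipoq and Plin1, sums 1090 to 1420, 1044 to 1703 and 1095 to 1118). The largest part of these adipocyte sums was the fourth marker, Fabp4, with mean signals of 779.7 in C57, 763.3 in mdx and 917.2 in treated mice and a treated minus mdx difference of 0.26 (adjusted p = 0.143). Mature muscle markers were called in neither comparison by limma, 0 of 7 (0 also at an unadjusted p under 0.05), with sums of 45750 to 47300, 46890 to 47880 and 45690 to 48730. The part of these cells in the lysosomal results was not tested. Of the 7 neutrophil markers only Csf3r reached a signal of 30 and S100a8, S100a9, Ly6g, Mpo, Elane and Cxcr2 did not, nor did any of 7 T cell markers. Csf3r was higher in mdx by 0.98 (adjusted p = 8.18e-05) and lower after treatment, treated minus mdx being -0.73 (adjusted p = 0.00312).

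**Figure D4:**
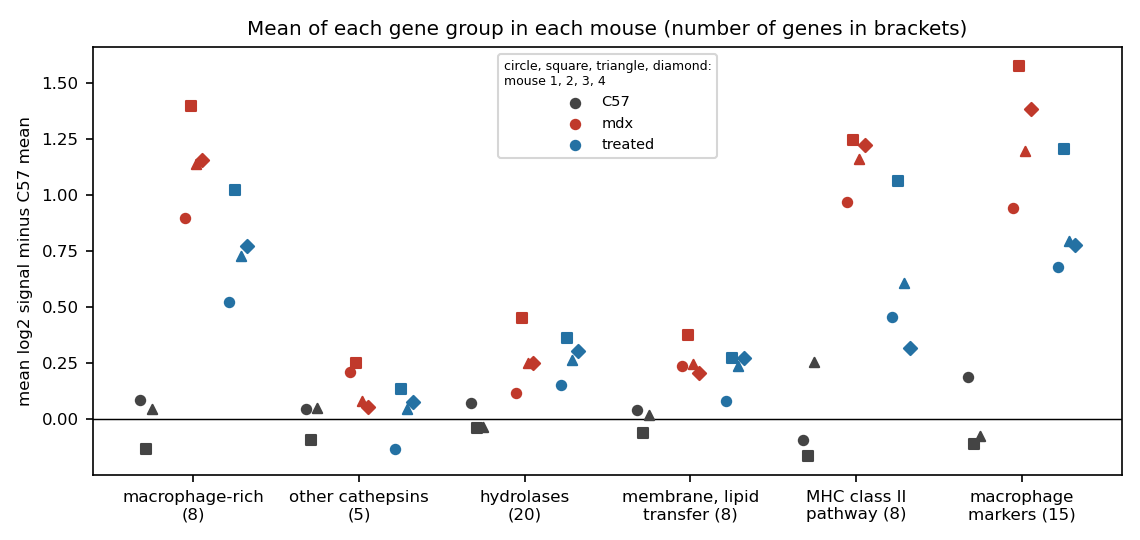
Mean log2 signal of each gene group minus its C57 mean (vertical axis) for 6 gene groups along the horizontal axis, with 1 point per mouse, colour for the group of mice and shape for the mouse number. All 6 gene groups stand above 0 in all mdx mice. The macrophage-rich genes lie between 0.90 and 1.40 there, the MHC class II pathway between 0.97 and 1.25 and the macrophage markers between 0.94 and 1.57. The hydrolases lie between 0.12 and 0.45, the membrane and lipid-transfer genes between 0.20 and 0.38 and the other cathepsins between 0.055 and 0.25.

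The MHC class II pathway is where cathepsin S and the thiol reductase Ifi30 act, since it loads peptides made in the lysosome onto class II molecules. Of its 10 listed genes 8 were tested, and all 8 were called higher in mdx, where 7.06% of all probe sets tested were. Their median difference was 1.17, with a range from 0.69 (Ciita) to 1.59 (H2-Ab1). Treated minus mdx was called lower for 3, H2-Aa at -0.72, Ifi30 at -0.65 and the chaperone Cd74 at -0.54 (adjusted p = 0.0301, 0.00787 and 0.0229). In that comparison 3.88% of all probe sets tested were called lower.

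The inhibitors of cathepsins were the cystatins, of which 3 of 4 were tested. Cstb, cystatin B, an inhibitor inside the cell, was higher in mdx by 0.74 (adjusted p = 0.0138) and lower after treatment, treated minus mdx being -0.85 (adjusted p = 0.0127). Neither Cst3 nor Cst6 was called in mdx minus C57 or treated minus mdx.

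The proton pump that acidifies the lysosome was followed through its subunits. Of the 16 tested subunits of the proton pump (V-ATPase) 0 were called in mdx by limma (2 higher and 2 lower at an unadjusted p under 0.05). In that comparison 7.06% of all probe sets tested were called higher and 4.96% lower (13.5% and 11.4% at an unadjusted p under 0.05). In treated minus mdx, Atp6v1h and Atp6v1a were higher, at 0.51 and 0.46 (adjusted p = 0.0261 and 0.0363), and Atp6v0e, Atp6v1f and Atp6v0d1 lower, at -0.54, -0.46 and -0.305 (adjusted p = 0.0497, 0.0495 and 0.0404). The probe set of Atp6v1f is annotated as not unique to its gene. The called subunits of the pump thus differed in both directions, where 7.26% of all probe sets tested were called higher and 3.88% lower. These calls were not repeated with a mouse left out.

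Regulators, sorting receptors and autophagy genes were followed in the same way. Over all probe sets tested, 7.06% were called higher and 4.96% lower in mdx minus C57. In treated minus mdx these shares were 7.26% and 3.88%. The counts below were not tested against these shares. Of 8 regulators of lysosomal genes 0 were called in mdx by limma, Tfeb and Tfe3 among them (0 higher and 1 lower at an unadjusted p under 0.05). In treated minus mdx the transcription factor Mitf was higher by 0.66 (adjusted p = 0.0224) and Lamtor1, a part of the complex that holds mTORC1 at the lysosome, lower at -0.41 (adjusted p = 0.0494), on a probe set annotated as not unique to its gene. Of 6 sorting genes, Sort1, sortilin, was lower in mdx at -0.34 (adjusted p = 0.0342). Among 13 autophagy genes Ulk1, the kinase that starts autophagy, was lower in mdx at -0.50 (adjusted p = 0.026), and Atg5 and Wipi1 were higher in treated than in mdx mice, at 0.44 and 0.38 (adjusted p = 0.0397 and 0.0255).

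The arrays had median intensities from 27.5 to 28.6, and their number, 3 or 4 a group, limits the precision. For Dmd itself the log2 signal was 5.77 to 5.87 over the C57 mice, 4.60 to 5.82 over the mdx mice and 5.51 to 6.34 over the treated mice. The mdx and C57 mice overlapped (difference -0.55 ± 0.25, adjusted p = 0.198), so this probe set does not check the labels.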

How the data were processed

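Total RNA from the TA of 11 mice was hybridised to Affymetrix Mouse Gene ST 1.1 arrays, 1 per mouse. Per the submitters' processing notes and the methods, the authors used Affymetrix Expression Console with RMA (background correction, quantile normalization and median polish) and deposited intensities on the linear scale for 28350 probe sets. The filter at a signal of 30 that the methods describe had not been applied to the deposited intensities. Positions in the table come without a build, so gene positions and promoters were taken from RefSeq on GRCm38.p6.

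Here log2 was taken with no pseudocount, and the test took the 14494 probe sets whose mean signal reached 30 in any group. In R 4.3.3, limma 3.58.1 (lmFit and eBayes, two-sided) fitted a mean for each group over all 11 mice, and a gene was called where the p, adjusted by Benjamini-Hochberg over all these probe sets, was under 0.05. The fit was tested on simulated data. Each mouse is a replicate, and mouse numbers are names only. The other tools were matplotlib 3.10.9, NumPy 2.4.6, pandas 2.3.3 and Python 3.11.15.

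The 41 genes, the 4 classes, the pathway and marker lists and the tests were chosen with earlier results of these data known, and the motifs after the values had been seen. Given mouse by mouse are the macrophage-rich genes, the other cathepsins, genes called between treated and mdx mice, and in the other classes the 2 largest rises and 2 largest falls in mdx, with Cd63 added. In other pathway lists up to 3 called genes with the largest difference are named, with defining genes, and the 5 V-ATPase subunits are all given. In the marker lists all genes called in treated minus mdx are named, with some others. H2-DMb1 was not analysed here. Results of some listed genes that are no members, and of the lists that hold them, are not reported here. Alternatives were other signal filters (none, or 100), the methods' t-test, the threshold of the text (unadjusted p under 0.01 and 1.5-fold), a trended and robust prior, fits restricted to the compared groups, a replicate block, arrays centred on their medians, a second quantile normalization, averaging all probe sets of a gene, a wider macrophage-rich class, and leaving out each mouse. The t-test at an unadjusted p under 0.05 was added after seeing the data.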

Additional observations from a re-analysis of the deposited data

Results flagged for a closer look

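In the groups of 4 mice, each of the 41 genes was looked at for a single mouse that stood far from the other 3 (Dixon's ratio above its critical value for 4 values), which chance gives in about 1 in 20 groups. Of 82 groups, 10 held such a mouse, and in 4 of them it was treated mouse 2. Treated mouse 2 was high for Laptm5 (log2 signal 9.68 against 8.65 to 8.80 in the other treated mice), Man2b1 (8.63 against 8.24 to 8.30) and Ctss (7.11 against 6.98 to 6.99), and low for Ppt1 (7.06 against 7.83 to 7.86). Mdx mouse 2 was high for Ctsc (8.39 against 8.10 to 8.12) and Lipa (8.06 against 7.47 to 7.55). Mdx mouse 1 was low for Naglu (6.46 against 6.77 to 6.83) and Npc1 (9.60 against 10.03 to 10.09). Among treated mice, mouse 1 was low for Ctsz (9.18 against 9.38 to 9.41) and mouse 4 was high for Npc1 (10.12 against 9.72 to 9.77).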

How the results depend on the processing

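The counts of treated minus mdx calls depended most on the processing. Of the 41 genes, 7 were called, and the count was 0 with the methods' t-test after Benjamini-Hochberg adjustment, 14 with that t-test at an unadjusted p under 0.05, 3 at the threshold of the text, 3 in a fit of only the 2 groups and 2 to 16 when 1 mouse was left out. For the macrophage-rich class (3 called) these were 0, 4, 1, 1 and 0 to 4. For the hydrolases (1 called) they were 0, 5, 1, 1 and 1 to 5. In the same comparison limma at an unadjusted p under 0.05 gave 4 of the 41 genes higher and 12 lower. It gave 18.5% of all probe sets tested higher and 13.0% lower. For the t-test, the threshold of the text and the fit of 2 groups, no share of all probe sets is given here. Their counts therefore do not show a change particular to the lysosomal genes. In mdx minus C57 the 12 calls ranged from 7 to 17 with a mouse left out, the 8 macrophage-rich calls from 6 to 8 (4 with the adjusted t-test), and the 1 hydrolase call from 0 to 4, with 5 by the unadjusted t-test and 2 in the fit of 2 groups. The 16 treated minus C57 calls were 8 with the adjusted t-test, 8 at the threshold of the text and 8 to 16 with a mouse left out. With Ctsb, Ctsd and Ctsl added to the macrophage-rich class, 9 of 11 were higher in mdx and 4 of 11 lower in treated than in mdx mice. The cause of these changes was not tested.

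Mouse numbers did not pair the mice. Deviations of same-numbered mice correlated from -0.30 to 0.15 over 10 pairs, and 1 of 11 mice correlated best with its own number. With the number as a replicate block, the treated minus mdx calls were 3 of 41 and 1 of 8 macrophage-rich.

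Small differences that were not called changed sign. Treated minus mdx became 0.077 for Gaa and 0.024 for Smpd1 with repeated quantile normalization. With a mouse left out it ran from -0.131 to 0.026 for Ctsf and from -0.048 to 0.008 for Gaa, and mdx minus C57 ran from -0.075 to 0.105 for Lamp1. Over the 22 alternatives, Ctss, Ctsz, Lgmn, Laptm5 and Gm2a were called higher in mdx in all 22, Ctsh and Acp5 in 21, Ctsk and Lipa in 19, Ctsb in 15, Cd63 in 9 and Ctsc in 6. In treated minus mdx, Ids and Gm2a were called in 21, Acp5 in 16, Scarb2 in 13, Ctsz in 12, Ctss in 11 and Ctsb in 8. Groups of 3 or 4 mice limit what can be called.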
